A study of Homo sapiens with 6 samples.

Results

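The liver X receptors NR1H2 (LXR-beta) and NR1H3 (LXR-alpha) were followed together with 3 of their classical target genes, ABCA1, ABCG1 and MYLIP, in a lymphoma cell line treated with an inhibitor of the arginine methyltransferase CARM1. The 5 genes were chosen by name, and each matched 1 of the 18278 listed genes through its Ensembl identifier. All 5 passed the filter on low values. They were picked with results of the same comparison known, so their differences between treatments are given as a description, without a test.

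Toledo is an established suspension line that came from a human diffuse large B cell lymphoma (DLBCL). Polyadenylated RNA was read from 3 samples kept for 6 days in 5 uM TP-064, the inhibitor, and from 3 kept equally long in its solvent, DMSO. All 6 samples come from this single line, no genetic change is named for either group, and the study's title places it among lymphomas with CREBBP or EP300 mutations. Nothing in the labels tells separate cultures from repeat samples of 1 culture, and the p-values below therefore cover sample spread that may be technical.

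LXRs are nuclear receptors that sense oxidized cholesterol derivatives and bind DNA as partners of the retinoid X receptors. When sterol is abundant they switch on ABCA1 and ABCG1, pumps that move cholesterol out of the cell to lipid-poor apolipoprotein and to HDL, and MYLIP (IDOL), a ubiquitin ligase that marks lipoprotein receptors for degradation. SREBP2 acts in the opposite sense, raising uptake and synthesis when sterol is scarce. In lymphocytes, activation of LXR is known to limit proliferation.

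The promoter of ABCA1 is shown because it carries the textbook LXR element, a direct repeat with a 4-base spacer (DR4), and that of MYLIP because it belongs to another member with higher values after TP-064. Both windows run from 250 bases before to 50 bases after the RefSeq start site, on GRCh38.p14 and read on the gene's own strand. ABCA1 lies on the minus strand at chr9:104928106-104928405, and its capitals mark the match to a loose form of the element, GGTNA and GGTCA separated by 5 bases of any kind, searched on both strands. MYLIP lies on the plus strand at chr6:16128836-16129135, and its capitals mark 2 CCAAT boxes, both on the opposite strand.
ABCA1: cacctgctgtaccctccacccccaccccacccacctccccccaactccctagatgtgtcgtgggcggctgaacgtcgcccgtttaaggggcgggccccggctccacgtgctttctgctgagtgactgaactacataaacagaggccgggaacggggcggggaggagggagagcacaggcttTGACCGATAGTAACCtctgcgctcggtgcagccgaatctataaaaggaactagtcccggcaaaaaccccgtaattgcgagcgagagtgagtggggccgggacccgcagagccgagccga
MYLIP: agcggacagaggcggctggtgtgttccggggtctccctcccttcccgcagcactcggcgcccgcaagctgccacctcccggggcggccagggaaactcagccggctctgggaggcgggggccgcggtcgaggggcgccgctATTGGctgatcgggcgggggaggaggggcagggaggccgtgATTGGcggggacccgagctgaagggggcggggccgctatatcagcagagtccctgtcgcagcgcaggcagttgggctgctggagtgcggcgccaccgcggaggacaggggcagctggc

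The ABCA1 match spans positions -69 to -55 from the start site and reads GGTTACTATCGGTCA on the opposite strand. The loose DR4 was found in 84 of 35116 RefSeq promoter windows of this length (0.239%), and ABCA1 was the only member with a match. NR1H2, MYLIP and the 4 start sites of NR1H3 held none within their windows, and ABCG1 had no entry in the table. ABCA1 also held a TATA box (TATAAA) at -31, which 11.5% of windows contain, and 3 GC boxes (GGGCGG), as did MYLIP, while 45.0% of windows hold at least 1. The CCAAT box of MYLIP occurs in 34.6% of windows. NR1H2 held 2 matches to the ETS core CCGGAAGT, found in 4.14% of windows.

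Among 10211 tested genes with a promoter entry, 29 had the loose DR4. Of these, 10 rose and 9 fell after TP-064 (limma, adjusted p under 0.05), or 34.5% and 31.0%, and their median log2 fold change was 0.02. Over all 10211 genes 34.0% rose and 38.3% fell, with a median of -0.02. Without ABCA1 the counts were 9 higher and 9 lower of 28. These shares lay near those of all genes.

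The mature miR-33 sequences are shown because these microRNAs lie inside SREBP genes and ABCA1 is their best known target. Capitals mark the seed, bases 2 to 8, which both share, from RefSeq on GRCh38.p14. The microRNAs themselves were not analysed here.
hsa-miR-33a-5p, within SREBF2: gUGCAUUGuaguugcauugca
hsa-miR-33b-5p, within SREBF1: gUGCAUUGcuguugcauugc

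For each gene 1 transcript was searched, the longest coding one of the GENCODE 29 basic set. The seed match CAATGCA occurs 4 times in the ABCA1 3′ UTR, which has 3313 bases. It occurs 0 times in those of ABCG1 (852 bases), MYLIP (1497), NR1H2 (380) and NR1H3 (149). These 3′ UTRs are shorter and have less room for a match, and the shares over all genes are not matched for length. Of 19068 genes with a 3′ UTR, 8.29% held at least 1 match and 0.178% held 3 or more. The first, second and last ABCA1 matches are given with their flanks, capitals marking the match, and the first and second overlap each other. A match is a run of letters and was not tested as a site.
ABCA1 match at 135 to 141 after the stop codon: tgtactgatactattCAATGCAatgca
ABCA1 match at 140 to 146: tgatactattcaatgCAATGCAattca
ABCA1 match at 1475 to 1481: tttttttaattgcaaCAATGCAaaagc

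The host genes of both microRNAs were lower after TP-064. SREBF2, which encodes SREBP2, read 6783, 6292 and 5796 normalized read counts (reads over the sample's size factor) in TP-064 replicates 1, 2 and 3 and 7478, 7500 and 7578 in DMSO replicates 1, 2 and 3. Its log2 fold change was -0.26 (limma adjusted p = 0.000179). SREBF1 fell by 0.37 on the log2 scale (limma adjusted p = 4.40e-05). The groups did not overlap for either gene.

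Reads assigned to listed genes came to between 41354131 and 48360867 per library. Over 16048 tested genes, 65.1% were called, 31.9% higher and 33.3% lower, with a median log2 fold change of 0.01. Scaling to library size alone moved that median to 0.13, and the share of calls that were higher from 48.9% to 61.5%. All 8 B cell markers had means of at least 100, and their summed level was 112779 to 120386 after TP-064 and 116681 to 118708 after DMSO. CD22, singled out after its values were seen, lay at 280 to 334 against 1634 to 1840 after TP-064 and DMSO. Macrophages, which use LXR heavily, were tracked by 10 markers, of which CD14, CSF1R and LYZ were listed. Their summed level was 71.2 to 99.5 after TP-064 and 34.6 to 65.6 after DMSO, and the higher sum came from CSF1R, at 49.5 to 75.2 against 6.49 to 18.9. CD14 went the other way, at 3.96 to 8.74 against 10.8 to 20.9, and LYZ lay at 12.2 to 18.3 against 17.3 to 25.8 with overlap. The part of these markers in the results was not tested. Listed T cell markers (CD4 and TRAC, of 8) summed to 103 to 113 and 28.0 to 45.7, and those of epithelium and liver (KRT8 and ALB, of 8) to 14.2 to 26.2 and 6.49 to 23.9. In bulk RNA, a change in the share of cells that carry a transcript and a change in RNA per cell cannot be told apart.

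The 2 receptors differed. NR1H2, the LXR expressed in most tissues, read 2561, 2630 and 2368 normalized read counts after TP-064 and 2263, 2169 and 2407 after DMSO. The lowest TP-064 value lay below the highest DMSO value, so the groups overlapped. The means were 2520 ± 136 and 2280 ± 120 (SD, n = 3 each), a log2 fold change of 0.14 (SE 0.05), which became 0.27 with scaling to library size alone. On GRCh38 the gene spans chromosome 19, plus strand, 50329653 to 50382982.

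NR1H3, the LXR best known from liver, fat and macrophages, read 132, 139 and 112 normalized read counts after TP-064 and 195, 184 and 184 after DMSO. Each TP-064 sample was below each DMSO sample, and TP-064 replicate 3 was the lowest. The ratio of the means was 0.681 and the log2 fold change -0.56 (SE 0.11). Only 110 to 188 reads per library lay behind these values, and the exact Poisson 95% interval, which covers counting error only, ran from 91.8 to 135 for the lowest library and from 168 to 225 for the highest. NR1H3 spans chromosome 11, plus strand, 47248300 to 47269032, and 189 of its 4533 exonic bases (4.17%) are also covered by exons of ACP2 on the minus strand. ACP2, a lysosomal acid phosphatase, was higher after TP-064, at 1156 ± 67.6 against 827 ± 65.1 (SD, n = 3 each). No source used here gives the strand setting of the counting, so reads of that stretch cannot be assigned to either gene with certainty.

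Per kilobase of exon, NR1H2 was the more abundant receptor in each sample. Its level was 14.0, 14.2 and 15.8 times that of NR1H3 in the DMSO samples and 23.4, 22.8 and 25.6 times in the TP-064 samples. The lowest ratio after TP-064 was thus above the highest after DMSO. The transcripts of both receptors were present under either treatment, with NR1H2 in excess.

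**Figure D1:**
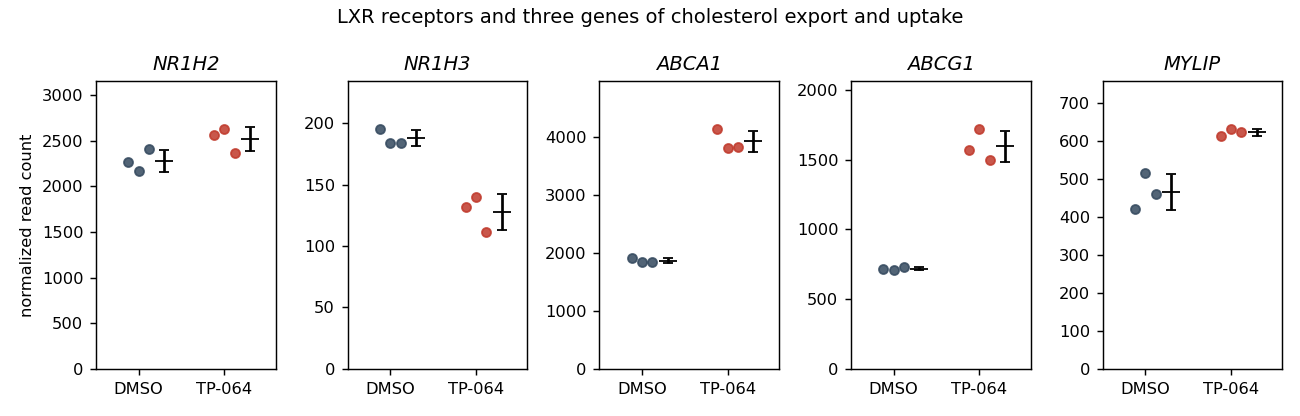
Normalized read counts (vertical axes, each from 0) of NR1H2, NR1H3, ABCA1, ABCG1 and MYLIP in the 3 DMSO and 3 TP-064 samples. Points are samples, and the bar beside them is the mean with its SD. ABCA1 and ABCG1 lie near 2 separate levels, NR1H3 is lower after TP-064, and the NR1H2 groups overlap.

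Both cholesterol pumps were higher. ABCA1, the full-size transporter that loads apolipoprotein A-I, read 4131, 3808 and 3814 normalized read counts after TP-064 and 1907, 1833 and 1847 after DMSO. No TP-064 sample came near the DMSO samples. The means were 3918 ± 185 and 1862 ± 39.3 (SD, n = 3 each), a ratio of 2.10 and a log2 fold change of 1.07 (SE 0.04). ABCA1 spans chromosome 9, minus strand, 104781002 to 104928237.

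ABCG1, the half-size transporter that passes cholesterol to HDL, read 1568, 1720 and 1499 normalized read counts after TP-064 and 713, 712 and 730 after DMSO. The DMSO samples were nearly equal and every TP-064 sample was above them. The means were 1596 ± 113 and 718 ± 10.1 (SD, n = 3 each), a ratio of 2.22 and a log2 fold change of 1.15 (SE 0.05). ABCG1 spans chromosome 21, plus strand, 42199689 to 42297244. Of all tested genes, 5.10% had a log2 fold change at least as high as that of ABCG1 and 5.89% as high as that of ABCA1. Per kilobase of exon, ABCA1 stood at 1.40 ± 0.0396 times ABCG1 in DMSO and 1.33 ± 0.119 times in TP-064 (SD, n = 3 each), so their proportion moved by less than the spread between TP-064 samples.

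The difference in MYLIP was smaller. It read 614, 632 and 625 normalized read counts after TP-064 and 423, 515 and 461 after DMSO. The TP-064 samples were close together and above all DMSO samples, of which replicate 2 was the highest. The ratio of the means was 1.34 and the log2 fold change 0.42 (SE 0.07). MYLIP spans chromosome 6, plus strand, 16129125 to 16148248. ABCA1, ABCG1, MYLIP and NR1H2 had no exonic overlap with a listed gene on the opposite strand.

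Of the 5 members, 3 had TP-064 values wholly above the DMSO values, 1 had them wholly below and 1 overlapped. Among all tested genes 33.9% were wholly above and 35.2% wholly below, 69.1% in all, and nothing is read from the members' count because the comparison chose them.

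Levels between genes were compared as normalized read counts per kilobase of exon. After DMSO the order was NR1H2 at 607 ± 32.0, ABCA1 at 164 ± 3.46, MYLIP at 154 ± 15.3, ABCG1 at 117 ± 1.65 and NR1H3 at 41.4 ± 1.44 (SD, n = 3). ABCA1 and MYLIP did not differ beyond their spread there. After TP-064 the order was NR1H2 at 671 ± 36.2, ABCA1 at 345 ± 16.3, ABCG1 at 261 ± 18.5, MYLIP at 206 ± 3.06 and NR1H3 at 28.2 ± 3.17 (SD, n = 3). In that group each neighbouring pair was separated by more than its spread, and ABCG1 stood above MYLIP, the reverse of DMSO.

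**Figure D2:**
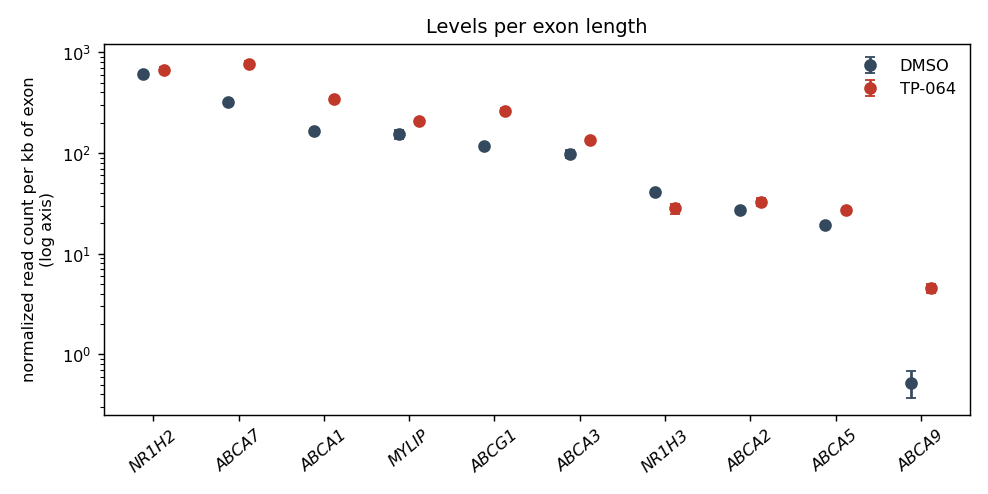
Normalized read count per kilobase of exon (log axis) for the receptors, ABCA1, ABCG1, MYLIP and 5 other ABCA genes, ordered by the DMSO level. Points are means of 3 samples and bars are SDs. The ABCA and ABCG genes shown lie higher after TP-064, NR1H3 lies lower, and ABCA9 is at the bottom of the scale.

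The wider pathway was described with 8 lists that hold 129 genes, of which 95 were tested. Of these, 31 rose, 51 fell and 13 were not called, with a median log2 fold change of -0.14 against 0.01 over all tested genes. The share that rose, 32.6%, lay near the 31.9% of all tested genes, and the share that fell was 53.7% beside 33.3%. Because the lists were chosen with earlier results of these data known, these shares describe the listed genes only. The same 31.9% and 33.3% of all tested genes stand beside the counts of each list below. The direction differed between lists: the other lipid pumps and lipid nuclear receptors were mostly higher, and enzymes of sterol synthesis and the lipoprotein receptors were mostly lower.

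**Figure D3:**
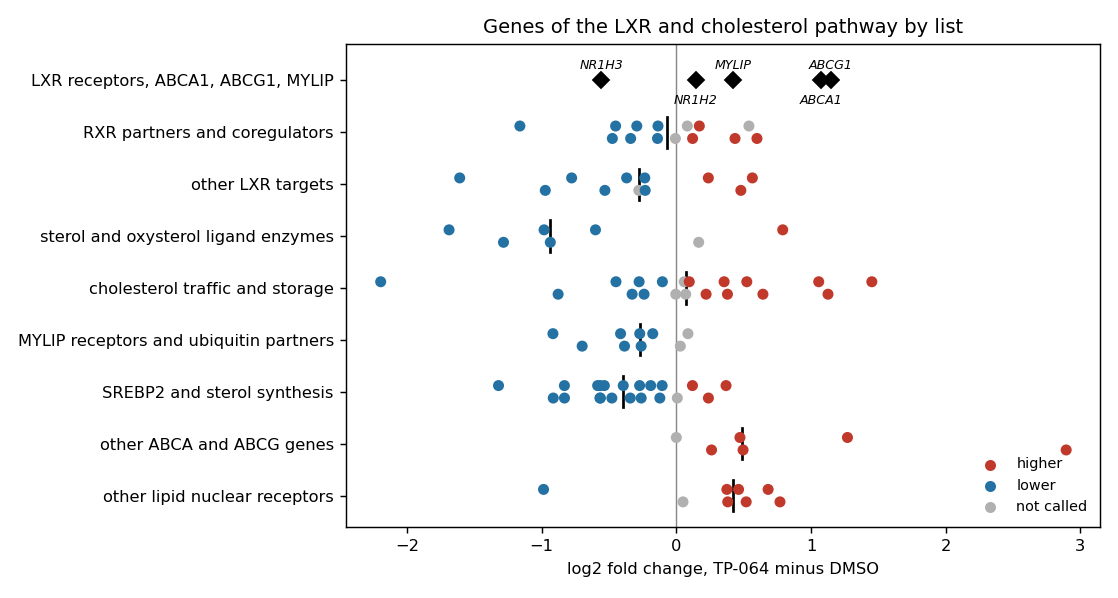
Log2 fold change (TP-064 minus DMSO, horizontal axis) of each tested gene in the pathway lists and of the receptors, ABCA1, ABCG1 and MYLIP. Points are genes, coloured where they passed the limma test as higher or lower and grey where they did not; black bars are list medians, and the black diamonds carry no test. The sterol synthesis list lies mostly left of 0 (17 lower, 3 higher). The tested genes of the list of other ABCA and ABCG genes, all of them ABCA genes, lie at or right of 0.

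Among 14 tested partners and coregulators of LXR, 4 rose and 7 fell, with a median of -0.07. These are 28.6% and 50%, beside 31.9% and 33.3% of all tested genes. RXRA, a retinoid X receptor that pairs with LXR, fell to 83.5 ± 21.0 from 185 ± 20.9 in normalized counts (mean and SD, n = 3 each), a log2 fold change of -1.16 (limma adjusted p = 1.91e-05). Its paralogue RXRB was far more abundant and did not pass the test, at 2695 ± 166 against 2545 ± 134 normalized read counts (limma adjusted p = 0.169). RXRB crossed the threshold with library size scaling, with edgeR and without TP-064 replicate 3. Per kilobase, RXRB stood at 39.3 ± 5.21 times RXRA in DMSO and at 94.5 ± 19.3 times in TP-064 (SD, n = 3 each). NR1H3 and RXRA, the less abundant of each pair, thus both had lower values after TP-064.

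Coactivators and corepressors of nuclear receptors changed by smaller amounts. NCOA1, a p160 coactivator, rose by 0.60 (log2), NRIP1 by 0.44 and NCOA3 by 0.17 (limma adjusted p = 2.22e-08, 0.00185 and 0.000470). TBL1X, a subunit of a corepressor complex, fell by 0.45 (limma adjusted p = 1.60e-05). NCOR1, a corepressor scaffold, had a log2 fold change of -0.01 (limma adjusted p = 0.893). With library size scaling the list's median was 0.05, with 6 higher and 5 lower, and NCOR1 was then at 0.12.

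Other established LXR targets did not share the direction of ABCA1 and ABCG1 as a group. Of 11 tested, 3 rose and 7 fell, with a median of -0.28, which was -0.16 with library size scaling and the same counts. PLTP, which transfers phospholipid between lipoproteins, rose by 0.57 (limma adjusted p = 5.76e-06). LPCAT3, which remodels membrane phospholipid, rose by 0.24 (limma adjusted p = 0.000704), but 65.6% of its exonic bases are covered by EMG1 on the opposite strand. MERTK, a receptor for dying cells, rose by 0.48 (limma adjusted p = 0.0216), a call lost without TP-064 replicate 1 or 3 and without DMSO replicate 1 or 3. SCD, the stearoyl-CoA desaturase, fell by 0.97, to 2245 ± 165 from 4399 ± 130 in normalized counts (mean and SD, n = 3 each), with a limma adjusted p = 1.96e-10. APOE, the lipid carrier, was barely present, at 7.44 ± 2.50 against 24.7 ± 7.31 normalized read counts (SD, n = 3 each), and fell by 1.61 (limma adjusted p = 0.00114). TTC39B was not called, at -0.28 (limma adjusted p = 0.383), and its value ranged from -0.55 without TP-064 replicate 3 to -0.08 without TP-064 replicate 2 or DMSO replicate 3. FASN, ACACA, SREBF1 and RNF145 were also called lower.

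Enzymes that make or use sterol ligands of LXR were mostly lower. Of 7 tested, 1 rose and 5 fell, with a median of -0.93. EBP, a sterol isomerase of cholesterol synthesis, read 2638, 2794 and 2579 normalized read counts after TP-064 and 6349, 6532 and 6599 after DMSO. Every TP-064 sample lay far below the DMSO samples. EBP fell by 1.28 and LBR, the lamin B receptor with sterol reductase activity, fell by 0.98 (limma adjusted p = 4.75e-13 and 4.37e-12). CYP46A1, which makes 24S-hydroxycholesterol, rose by 0.79 but from only 41.2 ± 7.50 to 71.5 ± 6.56 normalized read counts (SD, n = 3 each, limma adjusted p = 0.00160). SC5D was not called, at 0.17 (limma adjusted p = 0.0676), and it was called with TMM and library size scaling in limma and without TP-064 replicate 2 or DMSO replicate 2. CH25H, CYP27A1 and CYP7B1, which make or clear other oxysterols, were sought but were not among the listed genes, so they were not tested.

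The tested relatives of ABCA1 were mostly higher, and no other ABCG gene of the lists was tested. Of 6 tested ABCA genes, 5 rose and 0 fell, with a median of 0.48, and the count of 5 higher was the same under each scaling tried and 4 without TP-064 replicate 2. ABCA7, the closest relative of ABCA1 and itself a phospholipid transporter, read 6931, 6302 and 6154 normalized read counts after TP-064 and 2685, 2572 and 2767 after DMSO. The groups were widely apart, with a log2 fold change of 1.27 (SE 0.05, adjusted p = 3.72e-12 by limma). Per kilobase of exon, ABCA7 stood at 1.95 ± 0.0728 times ABCA1 in DMSO and 2.24 ± 0.0443 times in TP-064 (SD, n = 3 each). ABCA5 rose by 0.50 and ABCA9 rose by 2.89 (limma adjusted p = 4.65e-05 and 1.35e-06), the latter from 4.80 ± 1.40 to 41.4 ± 4.24 in normalized counts (mean and SD, n = 3 each). ABCA3 and ABCA2 were the other 2 that rose. ABCA10 had 11.1 ± 1.87 against 11.6 ± 4.48 normalized read counts (SD, n = 3 each) and did not pass (limma adjusted p = 0.999).

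Genes that carry cholesterol inside the cell were called in both directions. Of 19 tested, 9 rose and 7 fell, or 47.4% and 36.8%, beside 31.9% and 33.3% of all tested genes. The median was 0.07, and it was 0.19 with library size scaling (11 higher and 6 lower). GRAMD1B, which moves cholesterol from the plasma membrane to the endoplasmic reticulum, read 8489, 8306 and 8078 normalized read counts after TP-064 and 3007, 3001 and 3080 after DMSO. Its 2 groups were tight and far apart, with a log2 fold change of 1.45 (SE 0.03, adjusted p = 5.01e-14 by limma). NPC2, which hands cholesterol to NPC1 in the lysosome, rose by 1.06 and TSPO, an outer mitochondrial membrane protein that binds cholesterol, by 1.13 (limma adjusted p = 7.10e-11 and 6.76e-10). NPC1 had a log2 fold change of 0.07 (limma adjusted p = 0.134), and it was called with library size scaling, with TMM scaling in limma, with edgeR and without TP-064 replicate 2. OSBP, which exchanges sterol at the Golgi, was at 0.06 (limma adjusted p = 0.177) and was called with library size scaling and without TP-064 replicate 2. SOAT1, which esterifies cholesterol for storage, fell by 0.45, GRAMD1C fell by 0.88 and the caveolar protein CAV1 fell by 2.19, to 34.4 ± 5.48 from 160 ± 8.01 in normalized counts (mean and SD, n = 3 each). Their limma adjusted p were 1.43e-08, 4.12e-07 and 1.03e-08.

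Lipoprotein receptors that MYLIP marks for degradation fell at the RNA level. LRP8, which binds apolipoprotein E, read 2098, 2098 and 2143 normalized read counts with TP-064 against 3987, 3969 and 4001 with DMSO, and its log2 fold change was -0.92 (SE 0.04, adjusted p = 7.42e-12 by limma). The LRP8 samples of each group differed little, and the groups were far apart. VLDLR, its relative, read 375, 378 and 377 against 448, 427 and 479, a log2 fold change of -0.26 (limma adjusted p = 0.00387). Protein degradation by MYLIP is not seen in RNA. Of the 9 tested genes in this list, which also holds ubiquitin enzymes that work with MYLIP, 7 fell and 0 rose, with a median of -0.27. With library size scaling 5 fell and 1 rose, with a median of -0.15. UBE2N fell by 0.41 (limma adjusted p = 8.10e-07), with 39.5% of its exonic bases covered by NUDT4 on the opposite strand. UBE2D4 and UBE2V1 were not called, at 0.09 and 0.03 (limma adjusted p = 0.180 and 0.847), and UBE2D4 was called as higher with library size scaling. Of the exonic bases of UBE2D4, 15.5% are covered by POLR2J4 on the opposite strand. Processed copies of UBE2D and UBE2N genes can share reads, so these values are uncertain.

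**Figure D4:**
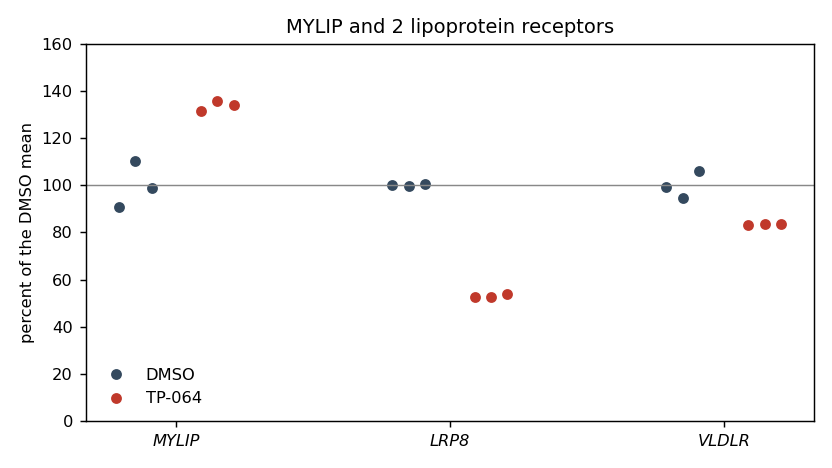
Normalized read count as a percent of the DMSO mean (vertical axis) for MYLIP and the lipoprotein receptors LRP8 and VLDLR, with 1 point per sample. MYLIP lies between 132% and 136% after TP-064, LRP8 between 52.6% and 53.8% and VLDLR between 83.0% and 83.7%.

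SREBP2 and its sterol synthesis targets were mostly lower. Of 21 tested, 17 fell and 3 rose, with a median of -0.39, which was -0.27 with library size scaling (13 lower and 3 higher). TMEM97, a regulator of NPC1, fell by 1.32, FDPS, which makes farnesyl pyrophosphate, by 0.91 and IDI1, an isopentenyl isomerase, by 0.83 (limma adjusted p = 3.57e-12, 5.93e-12 and 8.71e-11). Processed copies of FDPS can share its reads. Exons on the opposite strand cover 11.9% of the exonic bases of TMEM97 (IFT20), 18.6% of FDPS (RUSC1-AS1) and 14.8% of IDI1 (IDI2-AS1). MBTPS1, the protease that cleaves SREBP first, rose by 0.37 and LSS, lanosterol synthase, by 0.24 (limma adjusted p = 6.44e-08 and 6.41e-05). MVD, the third riser, was at 0.12 (limma adjusted p = 0.0481). It lost its call with DESeq2, with no filter, and without each replicate in turn except TP-064 replicate 3. INSIG2 was not called, at 0.01 (limma adjusted p = 0.927).

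Other nuclear receptors of lipid metabolism were more often higher. Of 8 tested, 6 rose and 1 fell, with a median of 0.42. PPARA, the fatty acid sensor, rose by 0.77, NR1D1 (REV-ERB-alpha) rose by 0.68 and ESRRA rose by 0.52 (limma adjusted p = 1.02e-07, 1.37e-05 and 1.16e-08). VDR, the vitamin D receptor and another partner of RXR, fell by 0.98, to 1673 ± 51.5 from 3313 ± 85.9 in normalized counts (mean and SD, n = 3 each, limma adjusted p = 1.53e-11). The coactivator PPARGC1B was not called, at 0.05 (limma adjusted p = 0.490), and was called with library size scaling.

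The genes most like each member over the 6 samples were found by the root mean square difference of log2 values centred on their own mean, among tested genes with a mean of at least 100. The 6 samples form only 2 groups, and the measure is given as a description. For ABCA1 these were YPEL2 (0.0258 log2 units, Pearson r = 0.999) and PCDH9 (0.0272, r = 0.999). For ABCG1 they were LLGL2 (0.0302, r = 0.999) and UMODL1 (0.0316, r = 0.999). MYLIP was most like LGALS9 (0.0365, r = 0.990) and COX20 (0.0376, r = 0.987). For NR1H3 the nearest were OAS2 (0.0210, r = 0.999) and DCPS (0.0365, r = 0.992), and for NR1H2 they were ZNF672 (0.0171, r = 0.991) and TAZ (0.0209, r = 0.978).

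UMODL1 was also the nearest tested protein-coding gene on the left of ABCG1. It lies on the same strand of chromosome 21, from 42062959 to 42143453, with a gap of 56235 bases to ABCG1. Its mean was 13718 ± 596 normalized read counts with TP-064 against 6223 ± 206 with DMSO (SD, n = 3 each). Its log2 fold change was 1.14 (SE 0.04, adjusted p = 2.07e-12 by limma) beside 1.15 for ABCG1. TFF3, the neighbour on the other side, 14422 bases away, was at 28.9 ± 8.18 against 10.4 ± 1.33 normalized read counts (SD, n = 3 each, limma adjusted p = 0.00123).

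The neighbours of ABCA1 did not follow it. NIPSNAP3B, 3544 bases away, had a log2 fold change of -0.07 (limma adjusted p = 0.707), and SLC44A1, a choline transporter 316384 bases away, fell by 0.13 (limma adjusted p = 0.00413). Beside MYLIP, ATXN1 rose by 1.12 at 150863 bases and DTNBP1 rose by 0.66 at 466066 bases (limma adjusted p = 7.73e-10 and 8.30e-08). The NR1H2 gene ends 1221 bases before POLD1, the catalytic subunit of DNA polymerase delta, which fell by 1.45 (limma adjusted p = 6.32e-13). MADD, 128 bases after NR1H3, rose by 0.14 (limma adjusted p = 0.00497), and ACP2 overlaps NR1H3 on its other side.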

How the data were processed

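Column-purified RNA went into stranded mRNA libraries, per the labels' protocols. The submitters' processing notes name hg38 and the tools DESeq 1.18.0, HTSeq 0.6.0 and TopHat2 2.0.10. No source used here gives the annotation release, strand setting or row filter. The authors deposited 1 table of normalized signal for each gene in each sample, which is a read count over a size factor. Every value was a whole multiple of its column's smallest nonzero value within 0.001 (100% of values). For TP-064 replicate 2 and DMSO replicate 2 the factor is close to 1, so their recovery rests on the unrounded decimals.

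Log2 of the value plus 1 was fitted with limma 3.58.1 (trend) in R 4.3.3 on all genes with a mean of at least 10, leaving 2230 out, two-sided, with Benjamini-Hochberg adjustment over all 16048 and a threshold of 0.05. Fold changes are on that log2 scale, which understates low genes. The fit had 4 residual degrees of freedom. On simulated data for this comparison (16026 genes tested), 98% of genes changed 1.5-fold and 100% of those changed 2-fold were recovered, with 3.41% of calls false. The simulation raised only 100 genes at each fold, lowered none and left low genes unchanged. Its rates therefore do not carry over to low genes, or to real data with many calls in both directions. Symbols and coordinates are from GENCODE 29 on GRCh38, matched for 18214 of 18278 genes. Members, lists and motifs were chosen with earlier results of these data known. From each list the text names up to 3 called genes with the largest change in each direction and up to 2 uncalled genes with the highest mean, and other genes only by position, likeness or as stated. Some genes that this rule takes are not reported here. The microRNA matches and the neighbours were added after the values were seen. Alternatives were other scalings, edgeR 4.0.16 and DESeq2 1.42.0 on recovered reads, other filters, pseudocounts and thresholds, a replicate block and each replicate left out.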

Additional observations from a re-analysis of the deposited data

How the results depend on the processing

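The count of all called genes was 10449, and 8690 to 10811 under the alternatives that kept all samples, with 9733 to 10260 when 1 replicate was left out. Pathway genes called higher numbered 31, with 27 to 38 and 28 to 33 in the same order, and those called lower 51, with 42 to 51 and 47 to 51. No alternative moved these counts by over 1.5 times. With the replicate block 10491 genes were called, and 31 pathway genes were higher and 51 lower. Deviations of same-numbered samples correlated at -0.0249, 0.192 and -0.126, so the numbers were not taken as pairs. The log2 fold changes of the members kept their sign in each alternative. Leaving out 1 replicate gave 1.03 to 1.09 for ABCA1, 1.09 to 1.19 for ABCG1, 0.36 to 0.50 for MYLIP, 0.11 to 0.19 for NR1H2 and -0.62 to -0.46 for NR1H3. Scaling to library size alone gave 1.19, 1.27, 0.55, 0.27 and -0.44 in that order. NCOR1 changed sign to 0.12 with it. Of 49 named pathway genes, 9 changed their side of the threshold or their sign in at least 1 alternative. Low counts limit the genes with means under 100, among them ABCA10, APOE, TFF3, ABCA9, TTC39B and CYP46A1, and NR1H3 rests on under 200 reads in each library.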
